A study of Homo sapiens with 4 samples.

Results

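Transcript levels were compared 24 h after a siRNA pool against MYC was given to OCI-Ly10 cells, a line established from a human large-cell lymphoma of B cells that is classed as the activated B-cell type. Members of the comparison were chosen by time alone: 2 of the 4 arrays of the series carry RNA harvested at 24 h. On both, RNA of cells electroporated with 4 uM of the MYC pool (c-myc siRNA SMARTpool) carried Cy5. On one array the Cy3 RNA came from cells electroporated with 4 uM of a nonspecific siRNA against Renilla luciferase (control siRNA), and on the other from cells electroporated in Solution T without siRNA (no siRNA). All cells of both arrays, controls included, had thus been electroporated. The early arrays (8 h with the control siRNA, 6 h without siRNA) served here for the comparison of time and for a shared estimate of the spread. Through that estimate, and the need for a value on all 4 arrays, they also bear on which genes pass below. The labels do not say whether the cultures of the arrays were separate or whether both 24 h arrays carry the same treated cells, so a p-value here reflects differences between hybridised samples that may be technical only.

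MYC is a transcription factor that binds with its partner MAX to E-box sequences near the start of many genes. It is known for driving ribosome production, metabolism and entry into the cell cycle, and for lowering genes of growth arrest and differentiation. In lymphomas of the activated B-cell type it acts beside chronic NF-kappaB signalling, and in normal B cells its loss accompanies differentiation to plasma cells.

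Values are taken as log2 ratios of cells with MYC siRNA over control cells, so that -1 would stand for a halved and 1 for a doubled transcript level. The log base is not stated in the sources used here, and each percent of control given below assumes base 2. The direction is likely rather than stated too: it rests on the dyes in the labels, and MYC lay below 0 on every array, so that its sign is no separate evidence of knockdown. A ratio gives no level, the dyes were not swapped on any array, and a dye bias of a single gene cannot be told apart from a difference between the cells. Values were present for 12697 features on the array against control siRNA and for 12028 on that against no siRNA. Averaged by gene symbol, they gave 7174 rows with a value on both arrays, 4070 named genes and 3104 features without 1 symbol. The array against no siRNA had the wider spread, with an SD over features of 0.45 against 0.32.

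The targeted gene was read first. MYC was at -0.35 against control siRNA and at -1.03 against no siRNA, which is 78.6% and 48.8% of the control level. Its mean was -0.69 ± 0.49 (SD, n = 2), so the arrays shared the sign but differed by about as much as the mean itself. Limma's adjusted p over all rows was 0.128, and 0.0543 in a fit that takes the spread from all 4 arrays. The call depends on the setting: MYC passed among genes with at least 2 features (limma adjusted p = 0.0145), with both arrays centred and scaled (0.0207) and with control kind as a term of the 4-array fit (0.0016). The exact sign-flip permutation test gave a two-sided p of 0.5, the smallest that 2 arrays allow. At the early times MYC had been at -0.94 (8 h) and -1.26 (6 h), and the difference of 0.41 between 24 h and early did not pass (limma adjusted p = 0.467). The 3 features of MYC with a value on both 24 h arrays were each lower in the mean, but 1 of them read 0.11 against control siRNA. A further feature had a value only against control siRNA, so the value of that array averages 4 features, and over the 3 shared ones it was -0.27.

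Across the table, the arrays at 24 h mostly had the same sign. Their values had a Pearson r of 0.56 over 7174 rows, a description over genes that share 2 arrays and a treatment. Both arrays lay below 0 for 2642 rows (36.8%) and above 0 for 2581 (36%), and they had opposite signs for 1938 (27%). Larger values were more often downward: both arrays were below -0.5 for 221 rows (3.08%) and above 0.5 for 86 (1.2%). Below -1 on both were 4 rows (0.0558%), among them the genes ARF3 and PARPBP, and above 1 on both was LGALS1 alone (0.0139%). Of 1981 genes with several features, 48.4% had all their features on one side of 0. Among the 134 of them with a mean past 0.5 either way it was 98.5%. A cut on the mean of the features itself favours genes whose features share a sign.

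**Figure D1:**
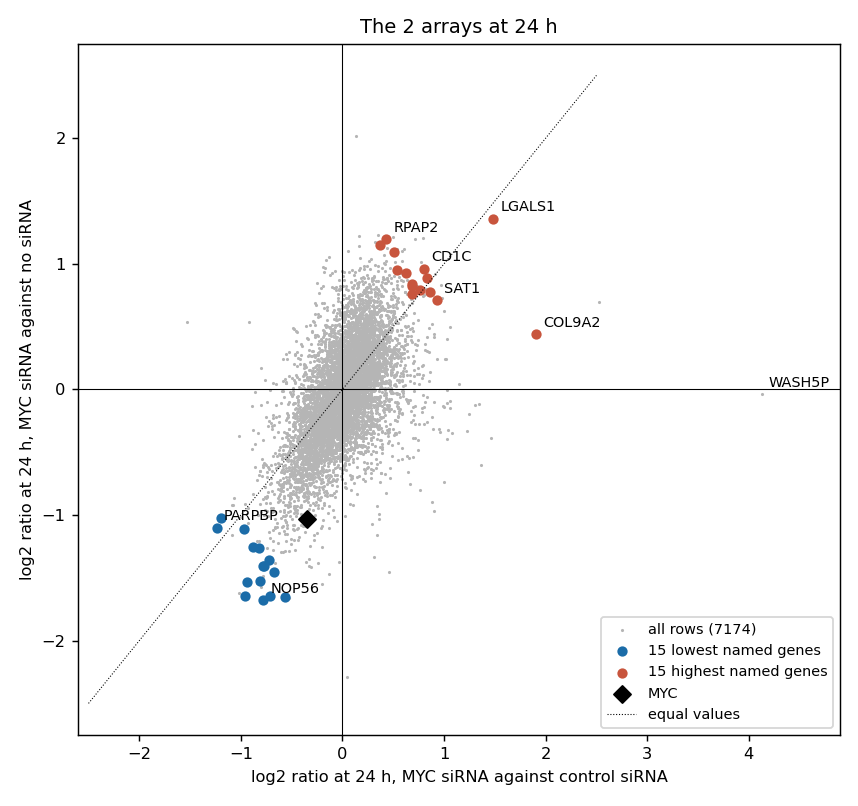
Log2 ratio of MYC siRNA over control at 24 h, with the array against control siRNA on the x axis and that against no siRNA on the y axis; grey points are the 7174 rows and the dotted line marks equal values. The 15 lowest named genes lie below 0 and the 15 highest above 0 on both arrays, while WASH5P reads 4.13 on one array and -0.04 on the other.

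The mean of both arrays was tested against 0 with limma, which had 1 residual degree of freedom per row. No row passed an adjusted p of 0.05 (0 of 7174, percent called 0), and the smallest adjusted p was 0.108. Before adjustment 1839 rows (25.6%) had a p under 0.05, 1034 lower and 805 higher. A second fit took the spread from all 4 arrays, with one mean at 24 h and one for the early pair. In this 4-array fit 448 of 6798 rows passed for 24 h (6.59%; 31.2% before adjustment), 331 lower (4.87%) and 117 higher (1.72%), of which 187 and 56 were named genes (4.73% and 1.42% of 3954). The early mean of the same limma fit called 0 of 6798 rows. With the array against no siRNA left out, 2 of these 448 rows still passed, both higher, and with that against control siRNA left out 256 lower and 75 higher rows did. With both arrays centred and scaled to one spread, the 2-array fit called 886 rows, 565 lower, with all 448 among them. In the 4-array fit on arrays centred and scaled in the same way, an alternative added after the data were seen, only 61 lower and 15 higher rows of the 448 still passed. Of the 28 lists with a call, 9 then kept one: mitochondrial biogenesis (4 of 5), ribosome biogenesis (3 of 6), splicing (3 of 5), the secretory list and the adhesion list (2 of 4 each), and chaperones, translation factors, respiratory chain and MHC class I with CD1 (1 each). The other 19 lists held no call there. Of 71 list members that passed, LGALS1 alone held without the array against no siRNA. Without the other array 56 held. The rest were PDCD4, SHMT2, PHB2, HK2, HSP90AB1, HNRNPC, PSMB4, NDRG1, ISG20, OAS1, PLEK, LY86, PRDM1, FDPS and SCD. Below, "passed" refers to the 4-array fit unless another test is named, and "after centring and scaling" to the same fit on arrays so treated. Each such call rests in part on the spread of the early arrays. The 2-array fit of the values as given called 0 of 7174 rows. Counts of list members that passed are to be read beside the 4.73% lower and 1.42% higher of all named genes.

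The 15 named genes with the lowest means at 24 h are given first. The cytochrome P450 gene CYP2B6 read -0.95 against control siRNA and -1.65 against no siRNA, and the helicase gene DHX15, whose product takes spliceosomes apart, -0.94 and -1.54. For NOP56, a scaffold of the particles that methylate ribosomal RNA, the values were -0.78 and -1.68, or 58.1% and 31.3% of control. Each of these 3 genes was thus lower on both arrays, and lower still where the control cells had no siRNA. HSPA9, the Hsp70 of the mitochondrial matrix, was at -0.71 and -1.64, and CYCS, the cytochrome c gene, at -0.81 and -1.52. The Hsp90 cochaperone gene FKBP4 was at -0.78 and -1.40. THOC1, of the complex that couples transcription to mRNA export, was at -0.68 and -1.45. In contrast, 3 genes of the low end read alike on both arrays. PARPBP, whose product binds PARP1 in DNA repair, was at -1.24 and -1.10, the Golgi GTPase gene ARF3 at -1.19 and -1.02, and the histone acetyltransferase gene KAT6B at -0.97 and -1.11.

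NOC3L, a nucleolar gene of large-subunit assembly, averaged -1.04 ± 0.45 and the metal transporter gene SLC39A14 -1.09 ± 0.44 (SD, n = 2 each). COCH, which encodes the secreted protein cochlin, averaged -1.07 ± 0.26 and API5, named for inhibition of apoptosis, -1.04 ± 0.31 (SD, n = 2 each). All 14 of these genes passed, with limma adjusted p between 0.025 and 0.0297. HSP90B1, the Hsp90 of the endoplasmic reticulum, was at -0.56 and -1.66 and missed the threshold (4-array limma adjusted p = 0.0504). NOP56, CYCS and HSP90B1 had 2 features each and the other 12 genes 1. In the fit of the 2 arrays alone, the adjusted p of these 15 genes lay between 0.108 and 0.114. Of the features without a symbol, 30623_1 (-1.02 and -1.62) and 30373_1 (-0.84 and -1.54) were the lowest, and both passed.

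The 15 named genes with the highest means follow. LGALS1, the galectin-1 gene of a lectin that binds galactosides, was at 1.48 against control siRNA and 1.36 against no siRNA, or 279% and 257% of control. Its mean of 1.42 ± 0.09 (SD, n = 2) was the highest of the named genes past the 4-array fit, with a limma adjusted p of 0.0144. Its 2 features were both above 0. CD1C, which presents lipids to T cells, was at 0.80 and 0.96, ITGAX, the CD11c integrin chain, at 0.83 and 0.88, and the scavenger receptor gene CD36 at 0.86 and 0.77. SAT1, which starts the breakdown of polyamines, read 0.93 and 0.71. GLRX, a glutaredoxin gene, read 0.76 and 0.79 with 5 of its 5 features above 0. For these 6 genes the arrays differed by less than 0.25.

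CALD1, the actin-binding caldesmon, averaged 0.76 ± 0.11, the phosphatase gene PTPRF 0.75 ± 0.09 and the retinol dehydrogenase gene DHRS9 0.72 ± 0.05 (SD, n = 2 each). HAL, which degrades histidine, was at 0.51 and 1.09, GNAQ, a G protein alpha chain, at 0.37 and 1.15, LDLRAD4 at 0.54 and 0.95 and FAM117B at 0.63 and 0.93. All 13 of these genes passed, with limma adjusted p up to 0.0482. RPAP2, a phosphatase of RNA polymerase II, was at 0.43 and 1.20 and did not pass (4-array limma adjusted p = 0.0723). COL9A2, a collagen chain, was at 1.91 and 0.44 and was not in the 4-array fit, since its 8 h value is empty. Without a symbol, 25108_1 (2.52 and 0.70) and 30192_1 (0.14 and 2.02) were highest, and each drew its mean mostly from 1 array. The first passed, though not without the array against control siRNA, and the second did not pass.

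**Figure D2:**
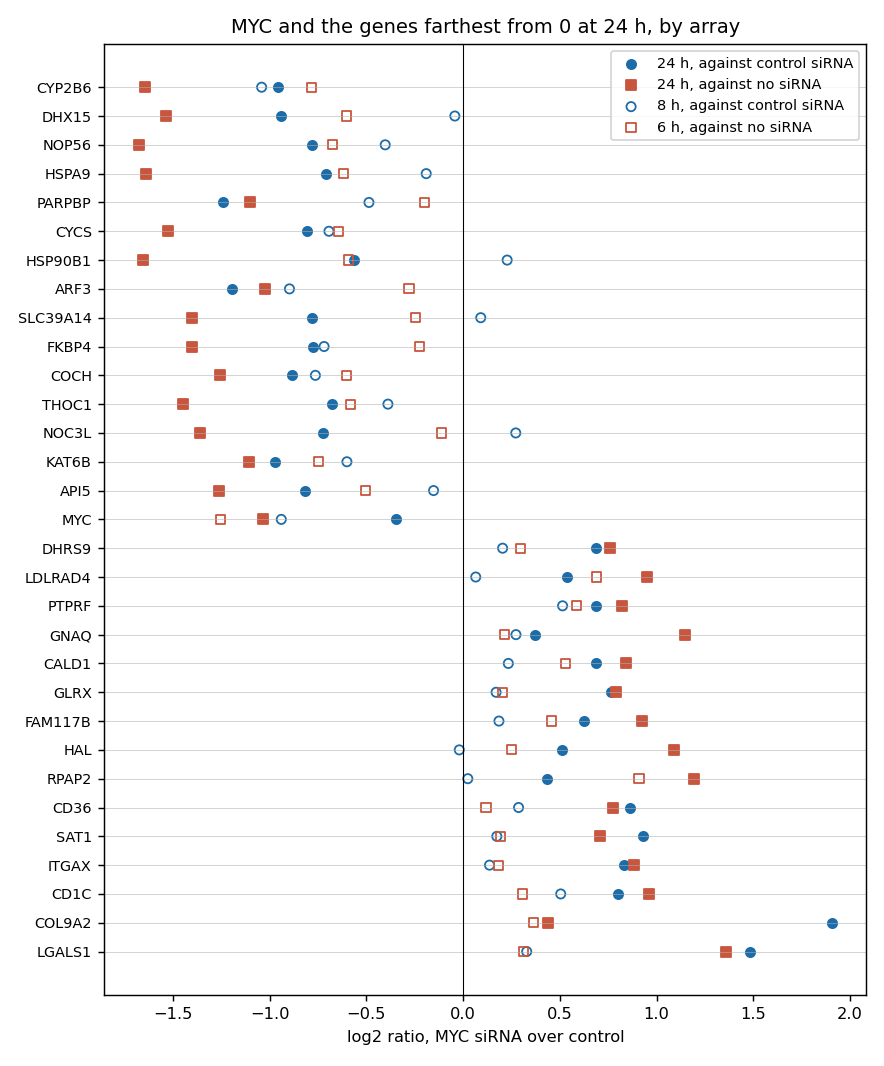
Log2 ratio on each array for the 15 lowest and 15 highest named genes at 24 h and MYC, with filled symbols for 24 h, open symbols for the early arrays, circles for control siRNA and squares for no siRNA. Among the lowest genes the square at 24 h is mostly left of the circle (NOP56 -1.68 against -0.78), while LGALS1 reads 1.48 and 1.36 at 24 h and 0.33 and 0.31 early.

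The measured partners of MYC had means nearer to 0 than MYC, though against control siRNA SKP2 and MXD3 were farther from 0. MAX, its dimer partner, was at -0.04 and -0.29, and MXD3, which competes with MYC for MAX, at 0.43 and 0.42. RUVBL1, an ATPase that MYC recruits, read -0.34 and -0.70, RUVBL2 -0.23 and -0.25, and SKP2, a ubiquitin ligase subunit that acts on MYC, -0.64 and -0.34. The kinase genes PIM1 and PIM2 averaged -0.30 and -0.28. Of 13 measured genes of the MYC network, 8 lay below 0 and 2 above 0 on both arrays (37.9% and 34.7% of all named genes), and 0 of 13 passed (unadjusted, 3 lower and 2 higher in the limma fit of 2 arrays). The median was -0.16, against -0.01 over all 4070 named genes.

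Genes that build ribosomes had the lowest median of the 38 gene lists in the mean of both arrays, while against no siRNA the aminoacyl-tRNA synthetases were lower (-0.58 against -0.52). Of 18 measured genes of ribosome biogenesis, 12 lay below 0 and 4 above 0 on both arrays, the median was -0.51, and 6 passed lower and 0 higher, against 4.73% and 1.42% of all named genes. NPM1, the abundant nucleolar chaperone nucleophosmin, was at -0.41 and -1.08, and its relative NPM3 at -0.76 and -0.90. FBL, the methyltransferase fibrillarin, read -0.60 and -0.79 and NOLC1, which escorts snoRNPs, -0.70 and -0.65. All 6 measured genes of box C/D and H/ACA particles were below 0 on both arrays, with a median of -0.60. For the 12 genes of processing the median was -0.31, and 4 of them were above 0 on both. The polymerases that transcribe ribosomal and transfer RNA lay nearer to 0: 9 measured subunits and factors had a median of -0.12, POLR1D was lowest at -0.49 and -0.41, and 0 passed.

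Ribosomal proteins stood near 0, in contrast to the genes that assemble them. The median of 26 measured genes was -0.01, above 0 when single features were counted, 13 lay below 0 and 9 above 0 on both arrays, and 0 of 26 passed. RPL11 was lowest at -0.44 and -0.46. Translation factors had a median of -0.34, with 17 of 23 genes below 0 on both arrays, 3 passing lower and 1 higher. EIF1AX, of the scanning initiation complex, was at -0.76 and -0.96. The release factor gene GSPT1 was at -0.48 and -0.98, and EIF3B, a core subunit of initiation factor 3, at -0.53 and -0.74. PDCD4, an inhibitor of the initiation helicase, went the other way, with 0.47 and 0.54. Of 8 measured aminoacyl-tRNA synthetases, 5 were below and 0 above 0 on both arrays, with a median of -0.46 and 3 passing, 0 of them after centring and scaling. WARS1 read -0.79 and -0.69, TARS1 -0.40 and -0.81, and IARS1 -0.47 and -0.69 over 6 features.

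**Figure D3:**
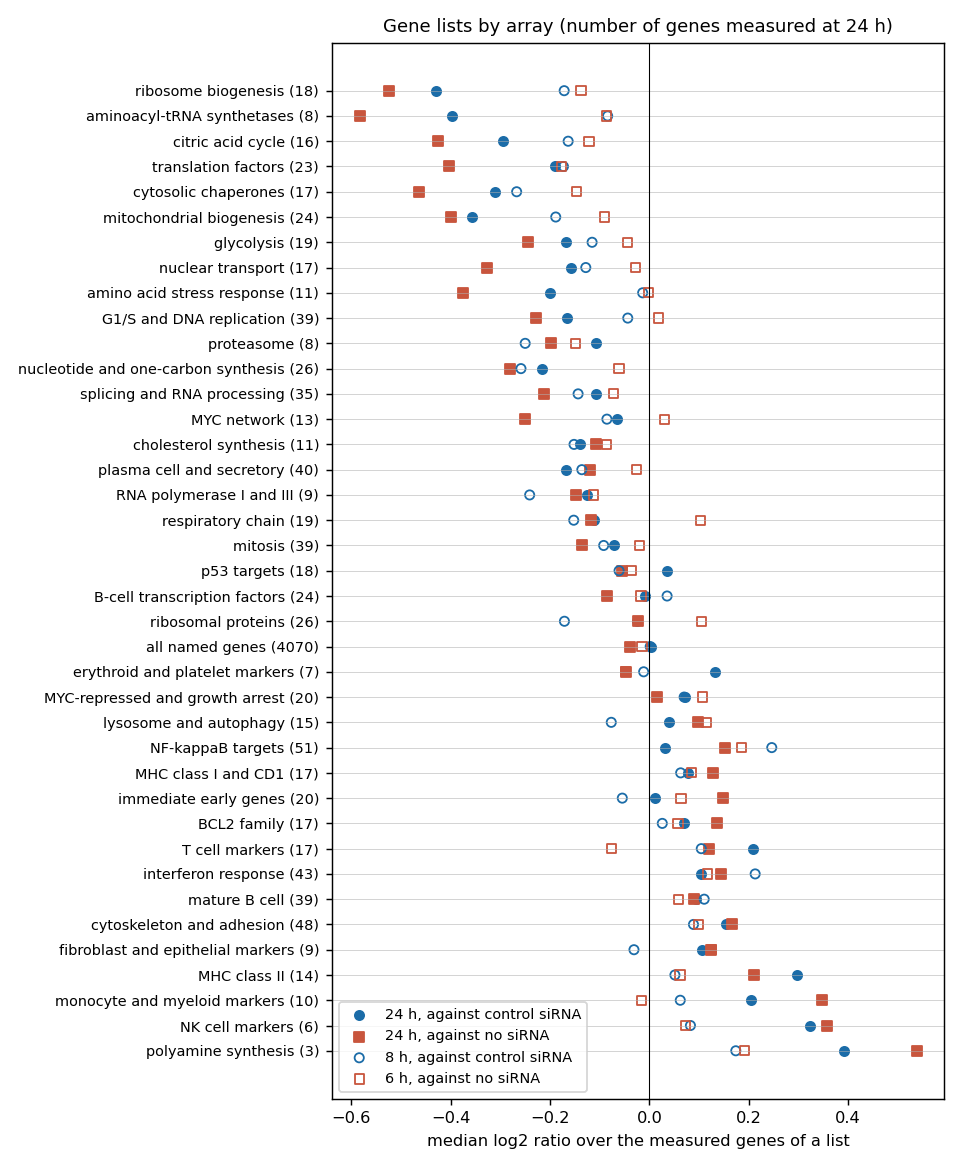
Median log2 ratio over the measured genes of each of the 38 lists and of all named genes, by array, with the number of genes in brackets, filled symbols for 24 h and open symbols for 8 h and 6 h. Ribosome biogenesis and aminoacyl-tRNA synthetases lie lowest at 24 h on both arrays, while ribosomal proteins (-0.02 on each 24 h array) stand beside all named genes.

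Genes that make nucleotides lay mostly below 0 as well. Of 26 measured genes of nucleotide and one-carbon synthesis, 20 lay below 0 and 1 above 0 on both arrays, the median was -0.20, and 5 passed lower and 0 higher, 0 of them after centring and scaling. CMPK1, which phosphorylates pyrimidine nucleotides, was at -0.48 and -1.20 and the uridine kinase gene UCK2 at -0.57 and -0.87. IMPDH2, the rate-limiting enzyme of guanine nucleotide synthesis, was at -0.81 and -0.65 and PAICS, of the purine pathway, at -0.47 and -0.93. SHMT2, the mitochondrial serine hydroxymethyltransferase, read -0.55 and -0.63 over 6 features. Polyamine genes split by role: ODC1, which makes putrescine, was at -0.07 and -0.49, while SAT1 and SMOX, which break polyamines down, were above 0 (SMOX 0.39 and 0.54). Only 3 of the 9 listed polyamine genes were measured, and the sign of their median turned when single features were counted.

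Genes that build mitochondria had a lower median than those of the respiratory chain. Of 24 measured genes of mitochondrial biogenesis, 20 lay below 0 on both arrays, the median was -0.34, and 5 passed lower and 0 higher. TFAM, which packages mitochondrial DNA, was at -0.58 and -1.30. The mitochondrial ribosome genes MRPL19 and MRPL11 averaged -0.92 ± 0.12 and -0.73 ± 0.16 (SD, n = 2 each). The prohibitin gene PHB2 was at -0.48 and -0.59. Respiratory chain genes had a median of -0.10 over 19 measured, 8 of them below and 4 above 0 on both arrays. CYCS was the single one of the 18 tested that passed, a share near the 4.73% of all named genes that passed lower. The difference between the lists was not tested.

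Enzymes of fuel metabolism lay mostly below 0. For the citric acid cycle and its entry points, 13 of 16 measured genes were below 0 on both arrays, the median was -0.38, and 2 passed lower, neither after centring and scaling. GLUD1, which feeds glutamate into the cycle, averaged -0.78 ± 0.31 (SD, n = 2), the malate dehydrogenase gene MDH1 at -0.45 and -0.71, and the citrate synthase gene CS, which did not pass, at -0.54 and -0.36. In glycolysis, 15 of 19 measured genes were below 0 on both, with a median of -0.25 and 3 of 18 tested passing lower, 0 of them after centring and scaling. ENO1 read -0.49 and -0.66, the hexokinase gene HK2 -0.54 and -0.57 and LDHA, which makes lactate, -0.39 and -0.64. Cholesterol and fatty acid genes had a median of -0.13 over 11, with FDPS (-0.64 and -0.62) and SCD (-0.63 and -0.48) passing.

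Cytosolic chaperones lay mostly below 0. Of 17 cytosolic chaperones, 12 were below 0 on both arrays, the median was -0.34, and 5 passed lower and 0 higher. Besides FKBP4 these were DNAJC2 (-0.69 and -0.81), which works at the ribosome, BAG1 (-0.40 and -0.92) and both cytosolic Hsp90 genes, HSP90AA1 (-0.38 and -0.84) and HSP90AB1 (-0.48 and -0.57). Splicing and RNA processing had a median of -0.17 over 35 genes, and 5 passed lower. Besides DHX15 and THOC1 these were PRPF38B (-1.09 and -0.92), the U1 protein gene SNRPA (-0.49 and -0.68) and HNRNPC (-0.41 and -0.63). Nuclear transport had a median of -0.24 over 17 genes, and KPNA3, an importin alpha, was the 1 that passed, at -0.84 and -0.72, a share near the 4.73% of all named genes. The exportin gene XPO1, at -0.41 and -0.94, did not pass. Of 8 proteasome genes 7 were below 0 on both, with a median of -0.20, and PSMB4 (-0.45 and -0.65) passed.

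**Figure D4:**
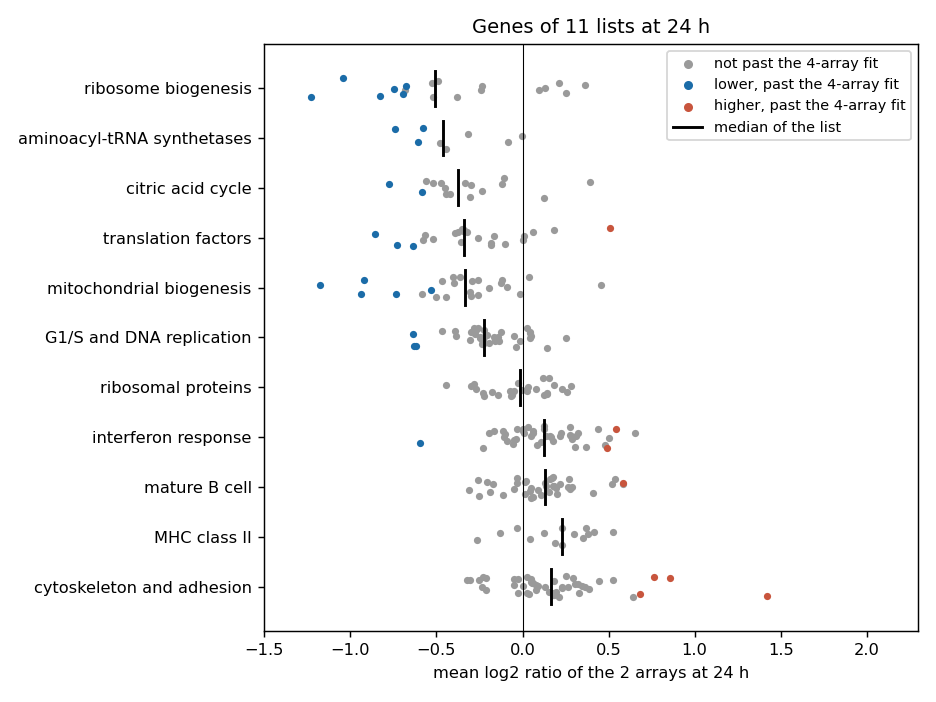
Mean log2 ratio of both 24 h arrays for each measured gene of 11 lists, with the list's median as a bar and genes past the 4-array fit in colour. Blue points lie among ribosome biogenesis (down to -1.23), mitochondrial biogenesis and the other growth lists, ribosomal proteins hold no coloured point, and LGALS1 (1.42) stands apart in the cytoskeleton and adhesion list.

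Cell cycle genes had medians nearer to 0 than ribosome biogenesis or the synthetases. Of 39 measured genes of G1/S and DNA replication, 26 were below and 4 above 0 on both arrays, the median was -0.22, and 3 passed lower and 0 higher. Neither these nor the mitosis genes below passed after centring and scaling. CDK4, the kinase that drives passage through G1, was at -0.45 and -0.82, the origin licensing gene CDC6 at -0.54 and -0.72, and POLA1, the catalytic chain of polymerase alpha, at -0.46 and -0.77. Mitosis genes had a median of -0.10 over 39, with 23 below and 6 above 0 on both, and 3 passed lower. For both lists the share that passed lower stands against 4.73% of all named genes. KIF20B was at -0.58 and -0.98, NEK2 at -0.46 and -0.98 and the kinetochore gene NUF2 at -0.38 and -0.83. In a whole culture, fewer cells in a phase and less transcript per cell cannot be told apart.

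Genes that MYC is known to lower were split by sign. Of 20 measured genes of growth arrest, 9 were above and 7 below 0 on both arrays, and the median of 0.04 turned sign with the median over features. NDRG1, a differentiation gene, was at 0.88 and 0.52 and passed with PDCD4 (2 of 19 tested), against 1.42% of all named genes. CDKN2D, an inhibitor of CDK4 and CDK6, was at 0.38 and 0.74 and TXNIP, a brake on glucose uptake, at 0.71 and 0.23, and neither passed. CDKN1A (0.41 and 0.05) and CDKN1B (-0.10 and -0.40), the p21 and p27 genes, did not share a sign. Of the 3 features of CDKN1A, 2 were below 0 and 1 above 0 in the mean. Targets of p53 had a median of -0.09 over 18 genes, above 0 on the array against control siRNA alone, and 0 of 17 passed. PMAIP1, which encodes NOXA, was lowest at -0.34 and -0.62. In the BCL2 family the median was 0.11 over 17 genes and 0 of 16 passed, with the survival gene BCL2A1 at 0.36 and 0.64 and the death gene BMF at 0.47 and 0.49.

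The lists of the secretory pathway and of the response to amino acid stress had medians below 0. Of 40 measured genes of the secretory list, which includes plasma cell markers, 22 were below and 7 above 0 on both arrays, and the median was -0.12. The 6 plasma cell markers went the other way, with a median of 0.19. Of these 3 were above and 1 below 0 on both arrays, and 0 passed. Of 39 tested, 4 passed lower, against 4.73% of all named genes. Besides ARF3 they were SRP72 (-0.63 and -1.15), of the signal recognition particle, LMAN1 (-0.81 and -0.91), a cargo receptor, and the lectin chaperone gene CANX (-0.45 and -0.93). Targets of ATF4 had a median of -0.22 over 11 genes. SLC3A2, the heavy chain of amino acid exchangers, was the 1 of 11 that passed, at -0.45 and -0.67, though not after centring and scaling. ATF4 itself, at -0.29 and -0.68, did not pass. PRDM1, the factor that drives plasma cell differentiation, was at 0.49 and 0.66 and was the 1 of 23 B-cell transcription factors that passed. The median of that list was -0.07, and ETS1 had the lowest mean (-0.18 and -0.92).

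Lists of antigen presentation and mature B-cell genes had medians above 0, with few calls. Of 14 MHC class II genes, 10 were above and 1 below 0 on both arrays, with a median of 0.23, and 0 of 14 passed. HLA-DMB was at 0.35 and 0.48, the invariant chain gene CD74 at 0.43 and 0.31, and the class II transactivator gene CIITA at 0.40 and 0.30, the last pair over 11 features each. Features of each gene differed in sign: in the mean, 1 of HLA-DMB, 1 of CD74 and 2 of CIITA were below 0. The features above 0 numbered 5, 10 and 9, in the same order. MHC class I and CD1 genes had a median of 0.08 over 17, with 9 above and 4 below 0 on both, and CD1C was the 1 of 16 that passed. B2M was at 0.45 and 0.47 and HLA-B at 0.44 and 0.39. Among mature B-cell genes 22 of 39 were above and 7 below 0 on both, with a median of 0.13. LY86, a partner of a Toll-like receptor relative, passed at 0.59 and 0.58, while CD79A of the B-cell receptor, at 0.24 and 0.81, did not. HLA genes have near-identical relatives, so their features may share signal. For CD1 genes, whose features may share signal too, the values differed. CD1A was at -0.31 and -0.23, CD1B had opposite signs on the arrays, and CD1D (0.37 and 0.16) had the sign of CD1C.

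Interferon and NF-kappaB lists held few calls, in both directions. Of 43 interferon genes, 23 were above and 5 below 0 on both arrays, with a median of 0.13. OAS1 (0.55 and 0.53) and ISG20 (0.49 and 0.49) passed higher and OAS2 (-0.52 and -0.67) passed lower, so close relatives took opposite signs. IFI6, at 0.32 and 0.99, did not pass. NF-kappaB targets had a median of 0.06 over 51 genes, with 21 above and 13 below 0 on both. PLEK passed higher (0.45 and 0.57) and the chemokine gene CXCL10 lower (-0.43 and -0.72 over 7 features), 1 of 51 each way against 1.42% and 4.73% of all named genes. Immediate early genes had a median of 0.10 over 20. NR4A1, an orphan nuclear receptor, was the 1 of 18 that passed, at -0.51 and -1.23, a share near the 4.73% of all named genes. The lysosome list had a median of 0.04 over 15 genes, led by CTSB at 0.40 and 0.26, and 0 passed.

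The adhesion and actin list held LGALS1 and 3 further genes that passed. Of 48 measured genes of cytoskeleton and adhesion, 28 were above and 7 below 0 on both arrays, the median was 0.16, and 4 passed higher and 0 lower. Besides LGALS1, ITGAX and CALD1 the fourth was GSN, the actin-severing gelsolin, at 0.68 and 0.69. MACF1, a linker of actin and microtubules, was at 0.40 and 0.89 and did not pass.

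Markers of other cell types were read beside these genes, since ITGAX and CD36 are also known from myeloid cells. The array gave 9 of 10 fixed B-cell markers, 8 of them above and 0 below 0 on both 24 h arrays, with a median of 0.19, but ratios cannot show whether a marker is present. Of 10 monocyte and myeloid genes measured, 8 were above and 0 below 0 on both, with a median of 0.27 and a range of -0.02 to 0.53, and TYROBP (0.42 and 0.64) passed. CD14, LYZ and CSF1R had no value on both arrays, and CD68 was at 0.39 and 0.34. NK genes had a median of 0.38 over 6, T-cell genes of 0.12 over 17, and fibroblast and epithelial genes of 0.19 over 9, each with 0 passing. Erythroid and platelet genes had a median of 0.02 over 7, below 0 without the array against control siRNA, with GATA1 (0.39 and 0.74) passing. The counts and medians for cell types other than B cells are of lists wider than the fixed markers. Of 8 fixed monocyte markers only CD68 was measured. Fixed markers had medians of 0.16 over 11 T-cell, 0.15 over 3 NK and -0.02 over 4 erythroid and platelet genes. Of all these fixed markers 0 passed. The part of other cells, or of faint features, in the higher genes was not tested.

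The promoters of the lower genes were read for the E-box CACGTG, the site that MYC and MAX bind best, to show where these letters stand in genes of the lists above. RefSeq promoters of assembly GRCh38.p14 were matched by symbol for 3329 of the 4070 named genes, and the 250 bases before the start site were searched; the motif is its own reverse complement, so both strands are covered. Each line shows a stretch around a match, 5′ to 3′ along the gene's strand, with every CACGTG in capitals.

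HSPA9, chr5:138575402-138575447, minus strand: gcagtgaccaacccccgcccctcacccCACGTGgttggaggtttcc
CDK4, chr12:57752494-57752553, minus strand: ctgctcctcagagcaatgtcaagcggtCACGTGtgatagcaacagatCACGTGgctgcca
LDHA, chr11:18394351-18394410, plus strand: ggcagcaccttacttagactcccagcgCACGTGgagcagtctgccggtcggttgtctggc
IARS1, chr9:92293851-92293910, minus strand: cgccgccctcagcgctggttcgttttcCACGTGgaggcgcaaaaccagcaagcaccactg
KPNA3, chr13:49792716-49792775, minus strand: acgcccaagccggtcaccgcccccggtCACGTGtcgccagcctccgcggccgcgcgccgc

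The promoter of CDK4 held 3 such matches, that of LDHA 2 and the others 1 each. At 24 h these genes averaged -1.18 (HSPA9), -0.78 (KPNA3), -0.64 (CDK4), -0.58 (IARS1) and -0.51 (LDHA). The motif stood in 9.64% of the tested genes with a promoter and in 6.49% of 27305 promoters of the same length. It stood in 16 of 163 genes that passed lower (9.82%) and in 3 of 47 that passed higher (6.38%). Of genes below -0.5 on both arrays, 16 of 110 held it (14.5%), and of those above 0.5 on both, 1 of 28 (3.57%). Genes that passed lower thus carried it about as often as all genes tested. A match shows these letters, not binding.

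The 24 h arrays were next set against the early arrays, in a limma model with time and kind of control as terms. Of 6798 rows 8 passed (0.118%), 6 lower (0.0883%) and 2 higher (0.0294%) at 24 h than early, and 687 (10.1%) had an unadjusted p under 0.05. NOC3L was at 0.27 (8 h) and -0.11 (6 h) early and at -0.73 and -1.36 at 24 h, a difference of -1.12 ± 0.18 (SE; limma adjusted p = 0.0285). SLC39A14 went from 0.09 and -0.25 to -0.78 and -1.40 (-1.01, SE 0.19, limma adjusted p = 0.0357). LBR, the lamin B receptor gene, went from 0.15 and 0.79 to -0.76 and -0.22 (-0.96, SE 0.18, limma adjusted p = 0.0494). LGALS1 went from 0.33 and 0.31 to 1.48 and 1.36 (1.10, SE 0.18, limma adjusted p = 0.0285). For NOC3L, SLC39A14 and LGALS1 the early pair lay within 0.35 of 0, while LBR began above 0. The standard errors come mostly from the spread pooled over rows, with 17.5 prior against 1 residual degree of freedom. None of the 4 passed without control kind as a term, or in this model with the arrays centred and scaled. Fits with 1 array left out cannot hold that term as well, and none of the 4 passed there either.

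Other genes near the top of this comparison had an unadjusted p under 0.05 alone. HSP90B1 went from 0.23 and -0.59 to -0.56 and -1.66, and USP25, a deubiquitinase gene, from 0.47 and 0.63 to -0.74 and -0.10. ITGAX went from 0.14 and 0.18 to 0.83 and 0.88, and NAIP, an inflammasome sensor gene, from -0.17 and 0.04 to 0.83 and 0.41. SKI, a repressor of TGF-beta signalling, read 0.00 and -0.43 early and 1.02 and 0.24 at 24 h, and HAL -0.02 and 0.25 and then 0.51 and 1.09. These 6 genes moved one way against both kinds of control, which their choice by the size of the difference favours. Of the genes named next, GIT2, CHRNB1, PDIA2, DNAJC7 and ANTXR2 did so too. GIT2 owed its place to 4.63 at 8 h, WASH5P to 4.13 at 24 h against control siRNA and CHRNB1 to -2.29 at 24 h against no siRNA, each on 1 feature. PDIA2 (-1.07 at 8 h), DNAJC7 (1.13 at 8 h) and ANTXR2 (1.31 at 24 h against control siRNA) likewise rested on 1 array.

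List medians at the early times were nearer to 0 in most growth lists, with no test of the difference. The array against no siRNA had a wider spread at 24 h than at 6 h (SD over features 0.45 against 0.29). Against control siRNA the SD was 0.32 at 24 h and 0.33 at 8 h. The part of the spread in these medians was not tested. Ribosome biogenesis had an early median of -0.17, aminoacyl-tRNA synthetases of -0.09 and G1/S genes of -0.03, against -0.51, -0.46 and -0.22 at 24 h. Taken gene by gene, the median change was -0.22, -0.24 and -0.18, in the same order. Targets of ATF4 had an early median of 0.02 and NK markers of 0.01. Going the other way, NF-kappaB targets had an early median of 0.20 and 0.06 at 24 h. RNA polymerase I and III genes also lay nearer to 0 at 24 h (-0.18 early and -0.12). So did the proteasome (-0.22 and -0.20) and ribosomal proteins (-0.05 and -0.01). The interferon list as a whole had much the same median at both times, 0.14 and 0.13, but its parts differed. Its 29 induced antiviral genes had 0.23 early and 0.13 at 24 h, and its 14 signalling genes and factors 0.06 and 0.10.

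**Figure D5:**
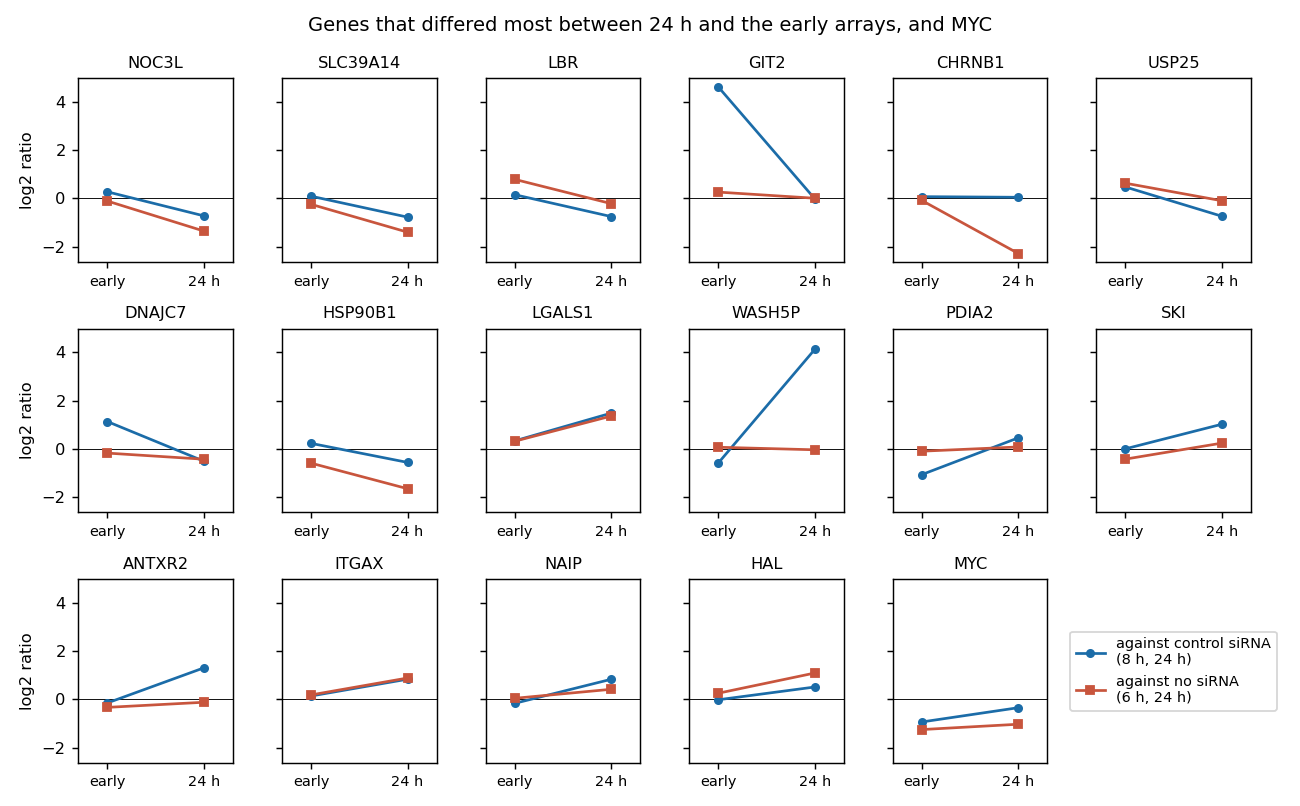
Log2 ratio at the early time and at 24 h for the 16 genes named for the largest differences with time and for MYC, with one line for the arrays against control siRNA (8 h and 24 h) and one for those against no siRNA (6 h and 24 h). Both lines climb for LGALS1 (0.33 and 0.31 to 1.48 and 1.36) and drop for NOC3L, while GIT2, WASH5P and CHRNB1 turn on a single point.

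The arrays at 24 h differed most from each other in single genes, where the kind of control, the experiment and the array cannot be told apart. Lower against no siRNA than against control siRNA were WASH5P (-0.04 and 4.13), CHRNB1 (-2.29 and 0.05), LHFPL1 (-0.97 and 0.90), TICRR (-1.33 and 0.31) and IER2 (-1.16 and 0.34). Higher against no siRNA were SELENOO (0.54 and -1.53), P2RX6 (0.54 and -0.92), ADRA2A (0.94 and -0.18), ZNF131 (0.85 and -0.25) and SERTAD2 (1.22 and 0.17). Each pair was measured on 1 array per control, so no test was made. IER2, an immediate early gene, had 2 features, of opposite sign in their means, and the others 1.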

How the data were processed

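Two-colour arrays of OCI-Ly10 RNA were analysed. The deposited values are the authors' log ratios, taken here as log2, 1 per feature and array. How the authors corrected background, normalized the arrays and left values empty is not given in the sources used here. Values are signed and centred near 0 (medians 0.014 and -0.034 at 24 h), from which the log2 scale was taken. The direction was taken from the dyes per the labels (Cy5, MYC siRNA, over Cy3, control). Scanner intensities were not used here, and the number of arrays limits the precision.

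Of 15154 features, 10165 had 1 symbol in the platform annotation, 4 several and 4985 none. Symbols were updated by Entrez ID through RefSeq (GRCh38.p14, 10124 features matched), and features of 1 symbol were averaged per array, leaving out missing values. A gene with several RefSeq promoters was read at the first listed.

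The mean of both 24 h arrays was tested against 0 with limma 3.58.1 in R 4.3.3 (lmFit and eBayes), with Benjamini-Hochberg adjustment over all 7174 rows and a threshold of 0.05. Prior degrees of freedom were 4.77 and the median standard error 0.133. The 4-array fit and the model of time and control kind ran on 6798 rows. The code was tested on simulated data.

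The genes named are MYC, 15 at each end of the means at 24 h with 1 sign on both arrays (an unadjusted p under 0.05 filled places where none passed), 8 each way for time, 5 each way for the difference between arrays, per list at most 5 members farthest on the median's side and 2 called the other way, and at most 2 features each way without a symbol. Further list members (such as MAX, MXD3, CDKN1A, CDKN1B, CS and others that passed) were picked out after their values were seen. The members and the 38 lists were chosen with earlier results of these data known.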

Additional observations from a re-analysis of the deposited data

Results flagged for a closer look

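Each of 8 rows differed between 24 h and the early arrays in the limma model with time and control kind. For NOC3L the difference was -1.1230, for SLC39A14 -1.0135, for LBR -0.9585 and for LGALS1 1.0995. Of features without a symbol, 25108_1 differed by 1.3945, and 3 further ones by -1.1735, -1.0805 and -0.9695. All were called at a limma adjusted p between 0.0285 and 0.0494. Groups of 2 arrays are too small to look for a single array far from the others.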

How the results depend on the processing

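The count of rows that passed at 24 h depended on the spread assumed. It was 0 in the limma fit of both arrays (1839 unadjusted) and stayed 0 with the median over features, with rows complete on 4 arrays and with robust moderation. It was 1 with single features, 332 of 1981 genes with at least 2 features (fewer rows tested), 346 with centred arrays, 886 with arrays centred and scaled and 448 in the 4-array fit. In alternatives chosen after seeing the data it was 76 (4-array fit, centred and scaled) and 1487 (control kind as a term). With 1 of the 24 h arrays left out it ranged from 7 to 720, where the lone array was assumed to vary like the early pair. Lower calls made up 59.4% to 80.3% of calls, apart from single features and the array against control siRNA alone (14.3%). MYC passed at -0.69 among genes with at least 2 features and with control kind as a term, and at -0.64 after centring and scaling; with 1 array left out it ranged from -1.03 to -0.35. For 24 h against early, 8 rows became 0 without control kind, 61 after centring, 0 after centring and scaling (534 unadjusted), 74 with single features and 0 to 2 with 1 array left out, in fits without control kind. CHRNB1 turned sign, to 0.053, without the 24 h array against no siRNA, and was at -2.28 without that against control siRNA. Of 38 lists, 21 to 23 had a median below 0, and 33 kept its sign in every setting. The cause of these differences was not tested. Without scanner intensities, signal over background is unknown.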
